A study of Homo sapiens with 8 samples.

Results

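G protein-coupled receptors whose symbols begin with GPR or ADGR were followed through the DZNep response of HEK293T cells. The members were all protein-coding genes of the authors' normalized count table whose GENCODE symbol was GPR with a number or ADGR with a subfamily letter and a number. There were 59 such genes among the 19118 of that table, 39 with a GPR symbol (called the orphan class below) and 20 with an ADGR symbol (the adhesion class). A further 47 genes with such symbols were in the count table of 57500 genes but outside the normalized table, which holds only genes with at least 81 counts summed over the 8 libraries. HEK293T cells descend from human embryonic kidney and express the large T antigen of SV40. DZNep, or 3-deazaneplanocin A, resembles adenosine and blocks AHCY, the enzyme that removes S-adenosylhomocysteine. Cells received DZNep at 100 µM, or only its vehicle (Control), and RNAseq was done on 4 libraries of each group after 48 h. All libraries came from 1 cell line, for which the labels name DMEM and the study's methods RPMI as the medium.

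G protein-coupled receptors cross the membrane with a bundle of helices and switch on heterotrimeric G proteins inside the cell. Adhesion receptors carry a long extracellular part that is cut from the membrane part at a site close to the membrane, and they bind proteins on neighbouring cells or in the matrix. Many GPR symbols were given before a ligand was known. Some of these receptors have since been paired with protons, lipids or metabolites, while several proteins with a GPR symbol reside in the Golgi or in lysosomes and are not established G protein-coupled receptors. Many of the genes are best known from neurons, leukocytes or endothelium.

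The promoters of 6 called members are shown as examples of start regions that differ in base composition, picked with their composition known, 4 of genes that rose (ADGRG1, ADGRE1, GPR146 and GPR85) and 2 of genes that fell (GPR153 and GPR157). Each runs 5′ to 3′ on the gene's strand, from 250 bases before to 50 bases after the RefSeq start on GRCh38.p14, and capitals mark each CG dinucleotide.
ADGRG1, chr16:57619488-57619787, plus strand: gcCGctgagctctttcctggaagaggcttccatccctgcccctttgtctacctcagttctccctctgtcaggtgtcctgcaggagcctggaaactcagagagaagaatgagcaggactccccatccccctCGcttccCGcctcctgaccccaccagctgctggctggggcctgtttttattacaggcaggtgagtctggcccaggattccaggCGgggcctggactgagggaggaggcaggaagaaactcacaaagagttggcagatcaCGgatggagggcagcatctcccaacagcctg
ADGRE1, chr19:6887329-6887628, plus strand: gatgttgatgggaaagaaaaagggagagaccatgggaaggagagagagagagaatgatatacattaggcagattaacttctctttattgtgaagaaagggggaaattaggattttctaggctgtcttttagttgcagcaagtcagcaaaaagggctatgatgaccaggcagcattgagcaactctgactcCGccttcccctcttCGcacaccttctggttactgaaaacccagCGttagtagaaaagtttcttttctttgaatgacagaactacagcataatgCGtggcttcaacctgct
GPR146, chr7:1044296-1044595, plus strand: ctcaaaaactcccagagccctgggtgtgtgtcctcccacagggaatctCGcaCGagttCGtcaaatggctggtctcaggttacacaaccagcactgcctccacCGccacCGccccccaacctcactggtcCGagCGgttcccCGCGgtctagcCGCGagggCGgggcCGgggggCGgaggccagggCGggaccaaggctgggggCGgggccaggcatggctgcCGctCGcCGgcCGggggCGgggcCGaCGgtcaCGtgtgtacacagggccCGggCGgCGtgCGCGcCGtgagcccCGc
GPR85, chr7:113087675-113087974, minus strand: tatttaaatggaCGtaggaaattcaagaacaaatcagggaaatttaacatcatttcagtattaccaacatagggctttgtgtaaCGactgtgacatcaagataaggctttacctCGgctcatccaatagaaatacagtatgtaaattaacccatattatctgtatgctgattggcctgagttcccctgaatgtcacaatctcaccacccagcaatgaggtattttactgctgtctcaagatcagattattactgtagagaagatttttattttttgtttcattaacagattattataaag
GPR153, chr1:6261049-6261348, minus strand: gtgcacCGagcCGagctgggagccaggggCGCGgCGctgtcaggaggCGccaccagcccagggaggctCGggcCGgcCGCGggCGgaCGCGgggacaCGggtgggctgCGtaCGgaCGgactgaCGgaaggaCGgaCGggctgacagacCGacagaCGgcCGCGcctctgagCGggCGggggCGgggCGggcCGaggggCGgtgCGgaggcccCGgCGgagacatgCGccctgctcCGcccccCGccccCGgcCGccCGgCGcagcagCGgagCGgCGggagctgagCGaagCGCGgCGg
GPR157, chr1:9129053-9129352, minus strand: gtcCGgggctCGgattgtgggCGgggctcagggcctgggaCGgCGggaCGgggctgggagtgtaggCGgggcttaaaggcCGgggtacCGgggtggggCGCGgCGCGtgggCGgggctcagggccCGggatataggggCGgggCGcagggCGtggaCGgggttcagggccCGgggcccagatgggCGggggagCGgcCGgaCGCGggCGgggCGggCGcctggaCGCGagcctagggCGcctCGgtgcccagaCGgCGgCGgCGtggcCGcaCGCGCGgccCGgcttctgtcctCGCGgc

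These windows held 5 (ADGRG1), 4 (ADGRE1), 31 (GPR146), 3 (GPR85), 47 (GPR153) and 43 (GPR157) CG dinucleotides, where the median over the 27305 promoters of that table was 14. They do not stand for all called members, since the windows of the other called members with a promoter in the table held 19 (GPR4), 25 (ADGRL4), 37 (GPR158) and 5 (GPR61) CG dinucleotides where the gene rose and 34 (GPR75) where it fell. The GC box GGGCGG, searched on both strands, occurred 7 times in the GPR146 window, 8 times in that of GPR153 and 6 times in that of GPR157, and it was in none of the other windows printed. It was held by 44.6% of all promoters of the table. TATAAA, also searched on both strands, occurred 1 time in the window of GPR85 and in 11.95% of all promoters. A match to these letters is a description of the window. The start of ADGRG1 used by RefSeq lies inside the gene as annotated by GENCODE, so the window is that of 1 of its starts. Since only 39 of the 59 members had a promoter in the table (66.1%), no comparison of promoter composition over the members was made.

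The libraries held between 25043058 and 44902779 counts, with Control replicate 1 the shallowest, and values below are normalized counts, that is counts divided by the authors' size factor of each library. Mitochondrial transcripts took between 3.02% and 13.7% of a library's counts, more in replicates 1 and 4 than in replicates 2 and 3 of both groups. Of the 7 genes listed for HEK293T cells, VIM, KRT8, KRT18, NEFL, NEFM, INA and PAX2, each had counts in the 8 libraries, KRT8 was called higher with DZNep, and the summed level lay between 28986 and 52417 normalized counts in Control and between 36194 and 47773 in DZNep.

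Among the 59 members, 56 passed the expression filter and were tested with edgeR's quasi-likelihood test over 19171 genes. Of these 56, 13 were higher and 5 were lower with DZNep with an adjusted p under 0.05 and a log2 fold change beyond 1 in size, called "rose" and "fell" below. Over all genes tested, 10.6% were called higher and 13.5% lower, and among protein-coding genes the shares were 9.68% and 11.5%. In the adhesion class 7 of 19 tested members rose and 1 fell, and in the orphan class 6 of 37 rose and 4 fell. Of all members, 3 fell without Control replicate 2, Control replicate 3 or DZNep replicate 4, where GPR157 and GPR75 lost their calls, and without Control replicate 4 the adhesion receptor ADGRG2 fell as well. The median log2 fold change was 0.09 in the adhesion class, 0.05 in the orphan class and -0.03 over all genes tested. Every DZNep library lay above every Control library in 13 tested members and below in 9, which held for 19.5% and 19.4% of all genes tested. Low genes enter the table and the test more readily when 1 group is high, so these counts describe the members that passed and are no test of a class. In bulk RNA, fewer cells of a type and less RNA per cell cannot be told apart.

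**Figure D1:**
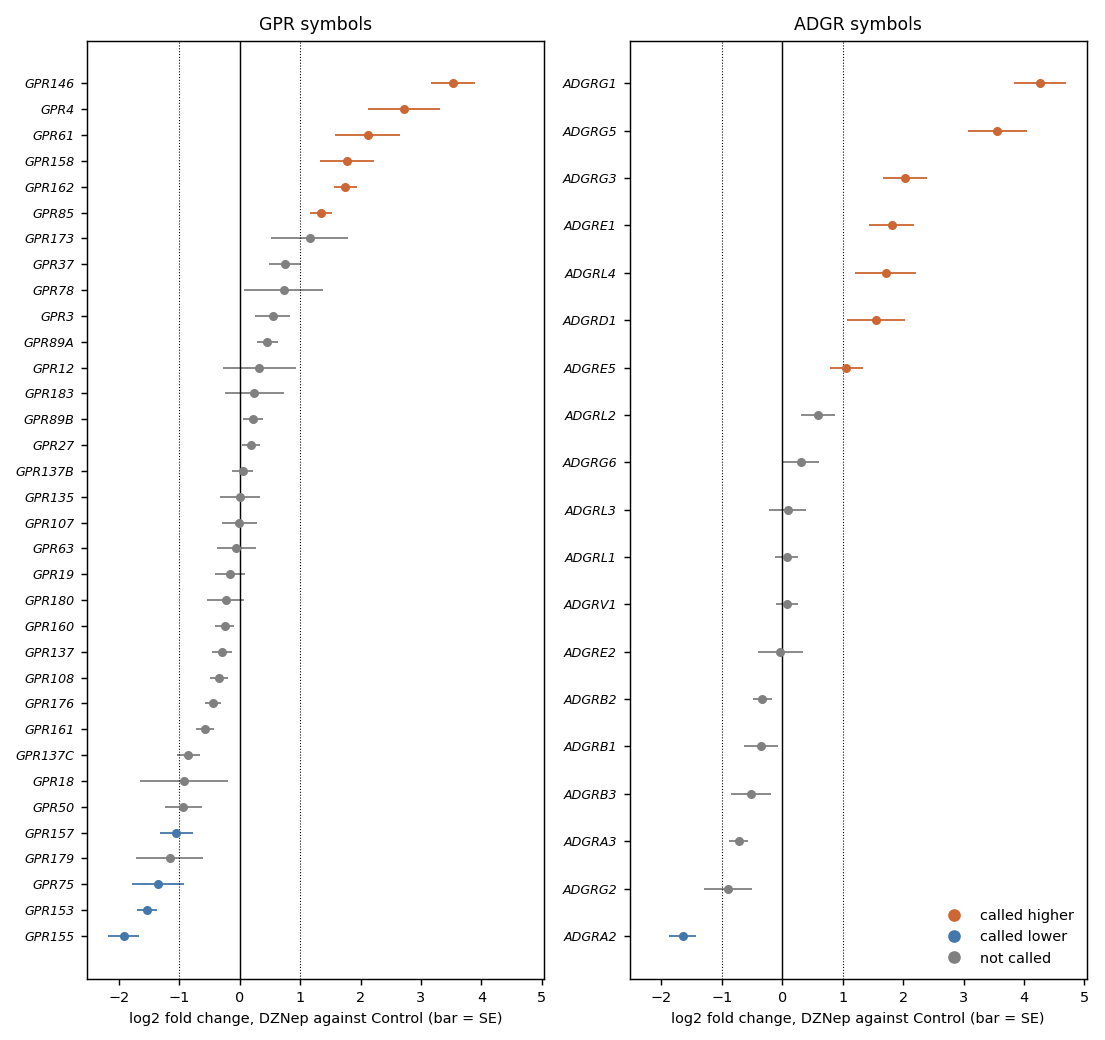
Log2 fold change of DZNep against Control for tested orphan (left) and adhesion (right) members, leaving out those not reported here, with standard errors as bars, from edgeR's quasi-likelihood fit over all 8 libraries. Dotted lines mark an absolute log2 fold change of 1, orange points were called higher, blue points lower and grey points were not called, and the highest value was that of ADGRG1 at 4.27 and the lowest that of GPR155 at -1.92.

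The members that rose were mostly those with few reads in Control. Of the 20 tested members with a mean under 50 normalized counts over the 8 libraries, 9 rose and 1 fell, where 20.9% of all tested genes of that level were called higher and 15.7% lower. Of the 15 members between 50 and 500, 3 rose and 2 fell (13.4% and 20.9% of all genes of that level). Of the 21 members over 500, 1 rose and 2 fell (4.21% and 8.59% of all genes of that level). In the adhesion class 6 of the 7 tested members under 50 rose, and in the orphan class 3 of 13 did. Genes this low enter the test more readily when 1 group is high. The numbers therefore describe the members that passed and are no test of a level or a class.

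**Figure D2:**
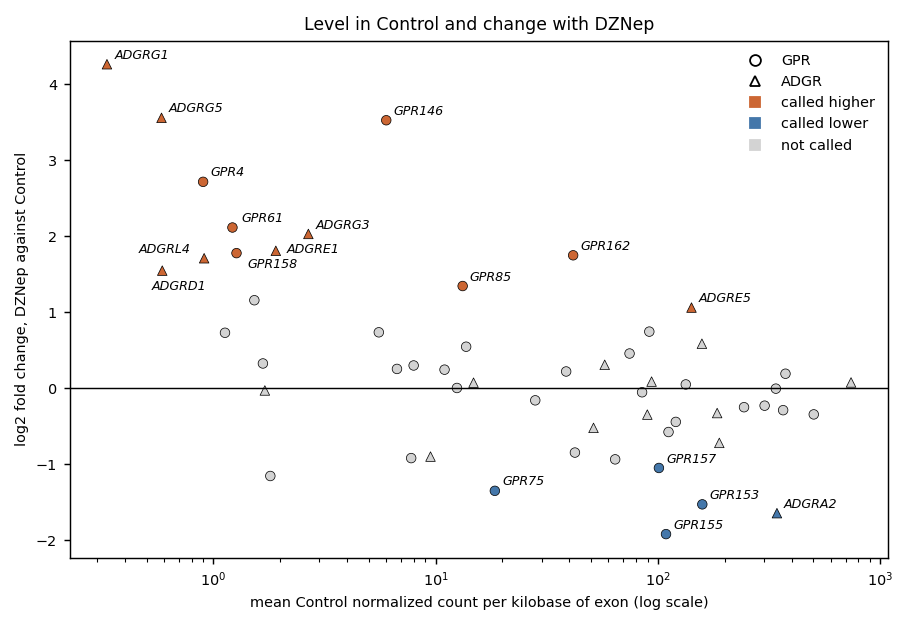
Mean Control level per kilobase of exon (log scale) against the log2 fold change with DZNep for the 56 tested members, with circles for GPR and triangles for ADGR symbols. Both axes use the Control libraries, called members are coloured and named, and those that rose lie mostly at the left, with GPR162 and ADGRE5 as the exceptions above 40 normalized counts per kilobase.

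Among the adhesion receptors tested by edgeR, the largest log2 fold changes were those of ADGRG1 and ADGRG5, which with ADGRG3 form a group of adhesion receptors of subfamily G that lie side by side on chromosome 16. ADGRG1 (GPR56) binds collagen III and is known from cortical development and cytotoxic lymphocytes, while ADGRG3 and ADGRG5 are known from leukocytes. ADGRG1 (ENSG00000205336, chromosome 16 from 57610652 to 57665580 on GRCh38) had 4.62, 4.46, 1.79 and 1.07 normalized counts in Control replicates 1 to 4 and 54.4, 52.4, 77.7 and 51.7 in DZNep replicates 1 to 4. Every DZNep library lay far above every Control library, at means of 2.99 ± 1.82 and 59.1 ± 12.5 (SD, 4 libraries each). Its log2 fold change was 4.27, its standard error 0.43 and its adjusted p 6.16e-05 from edgeR's quasi-likelihood test. ADGRG5 (ENSG00000159618, 57542643 to 57591681) had 6.17, 0.893, 1.79 and 4.30 in Control and 31.7, 40.3, 28.5 and 49.5 in DZNep, a log2 fold change of 3.56 (standard error 0.49, adjusted p = 3.36e-04). Its Control libraries did not reach 7 normalized counts and its DZNep libraries did not go below 28. ADGRG3 (ENSG00000182885, 57668277 to 57689378) started higher, at 9.25, 5.36, 12.5 and 7.52 in Control, and reached 37.2, 25.8, 37.1 and 46.1 in DZNep, a log2 fold change of 2.03 (standard error 0.36, adjusted p = 0.00136).

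The 3 genes span 146736 bp, and the gap between ADGRG1 and ADGRG3 is 2697 bp. Of the 22 other tested genes reaching within 500 kb of ADGRG1 on either side, 2 rose (CX3CL1 and DOK4), 0 fell at both thresholds and 20 were not called. At an unadjusted p under 0.05, 5 of the 22 were higher and 5 lower, where 22.9% and 26.0% of all genes tested were, and DESeq2 and limma also called 2 higher and 0 lower. CPNE2, COQ9, ZNF319 and CSNK2A2 had an adjusted p under 0.05 with log2 fold changes between -0.81 and -0.38, and POLR2C and USB1 had one with 0.89 and 0.51. The immediate neighbours CCDC102A and DRC7 were not called, with log2 fold changes of -0.21 and 0.95 and adjusted p-values of 0.525 and 0.110 from edgeR's quasi-likelihood test. These neighbours were named after their values were seen.

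**Figure D3:**
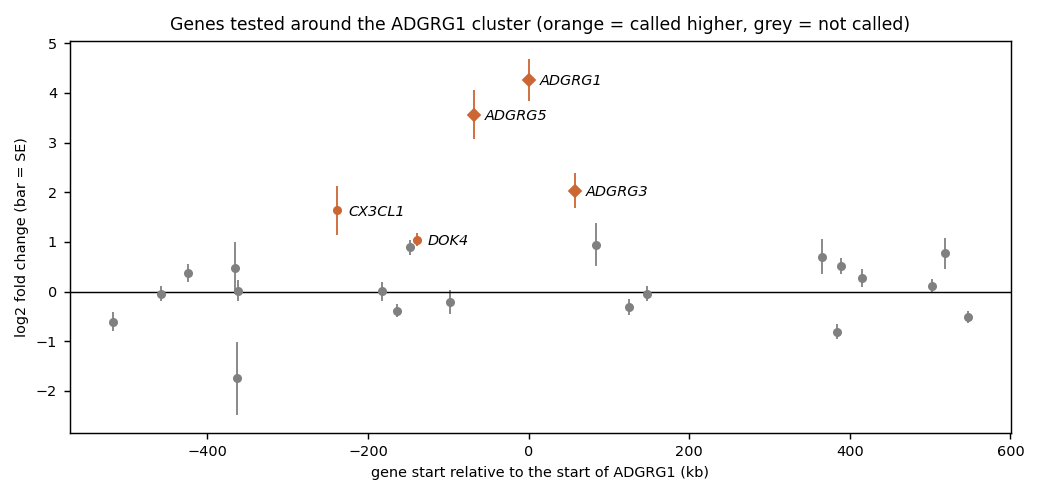
Log2 fold change with standard error of the 25 tested genes reaching within 500 kb of ADGRG1 on either side, itself included. Genes are placed in kilobases by the distance of the gene's start from that of ADGRG1. Orange marks genes called higher and diamonds the 3 ADGRG members, which stand at 3.56, 4.27 and 2.03. Of the 22 other genes, 2 were called higher and 20 were not called, where 10.6% of all genes tested were called higher and 13.5% lower.

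The other tested members of subfamily G, ADGRG6 and ADGRG2, which lie on other chromosomes, were not called. Outside the normalized table and not tested, ADGRG7 had 1 count summed over Control and 26 over DZNep, and ADGRG4 had 0 in all libraries. ADGRG6 (GPR126), a receptor of Schwann cell myelination on chromosome 6, had 489 ± 150.3 normalized counts in Control and 617 ± 221 in DZNep (SD, 4 libraries each), with a log2 fold change of 0.31 and adjusted p of 0.443 from edgeR's quasi-likelihood test. ADGRG2, on chromosome X, had 96.3 ± 46.7 and 52.4 ± 22.0 (SD, 4 libraries each), with a log2 fold change of -0.90 at an adjusted p of 0.0986 from the same test. With DZNep it was the lower of each of the 4 same-numbered pairs, and the adjusted p with that number as a block was 0.00636.

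In subfamily E, whose members carry EGF-like repeats and are known from myeloid cells, 2 of 3 tested members rose. Over all genes tested, 10.6% were called higher. Among those with a mean under 50 normalized counts, the level of ADGRE1 and ADGRE2, 20.9% were. ADGRE5 (CD97, ENSG00000123146, chromosome 19 from 14380501 to 14408725), a receptor for CD55, had 558, 1086, 947 and 463 normalized counts in Control and 1556, 1901, 1859 and 1181 in DZNep. The groups did not overlap, although replicates 2 and 3 stood above replicates 1 and 4 in both of them. Its log2 fold change was 1.06 (standard error 0.28, adjusted p = 0.0121 by edgeR's quasi-likelihood test), close to the fold change threshold. Leaving out Control replicate 1, Control replicate 4, DZNep replicate 2 or DZNep replicate 3 brought it to 0.93, 0.88, 0.98 and 0.996, each below that threshold. ADGRE1, the human counterpart of the mouse macrophage marker F4/80, had 3.08, 9.82, 8.96 and 6.45 in Control and 20.9, 25.8, 25.0 and 34.9 in DZNep, a log2 fold change of 1.81 (standard error 0.38, adjusted p = 0.00355). ADGRE2 had 14.7 ± 5.45 and 15.0 ± 4.46 normalized counts (SD, 4 libraries each) and an adjusted p of 0.957. ADGRE5 and ADGRE2 lie in the same stretch of chromosome 19 with ADGRL1, and only ADGRE5 of these 3 was called.

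As several of these receptors are known from leukocytes, leukocyte markers were read beside them. Of 12 leukocyte genes, 9 were tested and 0 were called by edgeR in either direction, with 1 higher at an unadjusted p under 0.05, and their summed level was between 528 and 949.7 normalized counts in Control and between 699 and 1176 in DZNep. Of the 3 that were not tested, CD3E had 0 counts in every Control library and 8.16, 16.9, 15.5 and 40.5 normalized counts in DZNep. CD3D had 0 in Control and 0, 0.805, 1.73 and 2.25 in DZNep, and MS4A1 had 0 counts in all 8 libraries. LYZ had 30.8, 19.6, 21.5 and 18.3 in Control and 22.7, 450.2, 21.6 and 24.7 in DZNep, so that DZNep replicate 2 alone stood above Control, and its adjusted p was 0.0692 by edgeR's quasi-likelihood test. DESeq2 and limma each called 1 gene of the list higher, CD3E, and 0 lower. The part of leukocyte markers in the values of these receptors was not tested.

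The remaining adhesion receptors that rose were ADGRL4 and ADGRD1. ADGRL4 (ELTD1), a receptor of endothelium, had 9.25, 2.68, 2.69 and 6.45 normalized counts in Control and 9.98, 16.9, 13.8 and 27.0 in DZNep. The lowest DZNep library and the highest Control library, both of replicate 1, were nearly at the same level. The log2 fold change was 1.71 (standard error 0.50, adjusted p = 0.0203 by edgeR's quasi-likelihood test), and the call was lost without Control replicate 3 (1.47) and without DZNep replicate 4 (1.42). ADGRD1 (GPR133), a receptor that raises cAMP, had 1.54, 11.6, 10.7 and 10.7 in Control and 17.2, 35.4, 36.3 and 19.1 in DZNep, where Control replicate 1 was the lowest and DZNep replicates 2 and 3 the highest. Its log2 fold change was 1.55 (standard error 0.48, adjusted p = 0.0263), and it was not called without DZNep replicate 2 (1.40) or DZNep replicate 3 (1.39). Of 6 endothelial markers, 4 were called higher (CDH5, VWF, TEK and CLDN5), where 10.6% of all genes tested were. Among tested genes with a mean under 50 normalized counts over the 8 libraries, 20.9% were called higher. These 4 were low in Control, with means of 0.771, 2.81, 5.43 and 6.47 normalized counts, and had 16.1, 103, 15.0 and 25.3 in DZNep. Such low genes enter the test more readily when 1 group is high. The summed level of the 6 was between 169 and 202 normalized counts in Control and between 255 and 377 in DZNep. The other markers, PECAM1 with 163 ± 16.9 and 143 ± 74.9 and KDR with 12.9 ± 14.5 and 38.0 ± 18.3 (SD, 4 libraries each), were not called. The part of these markers in the ADGRL4 value was not tested.

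Among the well-expressed adhesion receptors, ADGRA2 fell. ADGRA2 (GPR124, ENSG00000020181, chromosome 8 from 37784191 to 37844896), which acts with RECK as a coreceptor for WNT7 ligands, had 1882, 2899.8, 2889 and 2073 normalized counts in Control and 776, 718, 1085 and 592 in DZNep. The groups stood well apart, with means of 2436 ± 535 and 793 ± 209 (SD, 4 libraries each). The log2 fold change was -1.65, its standard error 0.23 and its adjusted p 3.30e-04 by edgeR's quasi-likelihood test. BRF2 on the opposite strand overlaps 23.0% of its exon length, and the strand setting of the counting is not given in the sources used here. ADGRA3 (GPR125), of the same subfamily, was lower in every DZNep library too, with 1753 ± 206 and 1084 ± 179 normalized counts (SD, 4 libraries each) and an adjusted p of 0.00490, but its log2 fold change of -0.72 was short of the threshold of 1.

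Subfamily B, the brain-specific angiogenesis inhibitors, had 3 members and 0 calls by edgeR's quasi-likelihood test, DESeq2 or limma, and 0 passed an unadjusted p of 0.05 in edgeR. ADGRB1, ADGRB2 and ADGRB3 had log2 fold changes of -0.35, -0.33 and -0.52 with adjusted p-values of 0.350, 0.130 and 0.235 by edgeR's quasi-likelihood test. In each of them DZNep was the lower in all 4 same-numbered pairs, and with that number as a block the adjusted p-values were 0.0387, 0.0252 and 0.0179. With this block, 30.2% of all genes tested were lower at an adjusted p under 0.05. The values were nearly equal in replicate 3 of ADGRB2 (1487 in Control and 1486 in DZNep) and in replicate 1 of ADGRB3. ADGRB3, for example, had 264, 627, 438 and 241 normalized counts in Control and 262, 354, 327 and 169.9 in DZNep, with replicates 2 and 3 above replicates 1 and 4 in both groups.

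The latrophilins ADGRL1, ADGRL2 and ADGRL3 bind teneurins and FLRT proteins, and they were not called. ADGRL1 had the highest level of the adhesion class, 741 ± 194 normalized counts per kilobase of exon in Control and 797 ± 51.2 in DZNep (SD, 4 libraries each). Its library values were 6663, 5259, 4785 and 8456 in Control and 6167, 6914, 6766 and 7197 in DZNep, so the 4 DZNep libraries lay within the range of the Control libraries. Its log2 fold change was 0.08 (adjusted p = 0.777 by edgeR's quasi-likelihood test) and turned slightly negative without Control replicate 2 or 3. ADGRL2 had 2843, 5448, 4396 and 2597 in Control and 5376, 7845, 6310.2 and 3824 in DZNep, higher in all 4 pairs, with a log2 fold change of 0.59, an adjusted p of 0.123 and one of 4.31e-04 with the replicate block. ADGRL3 stood at a log2 fold change of 0.09 (adjusted p = 0.845). ADGRV1, the very large receptor of the Usher syndrome complex, had 501 ± 95.0 and 537 ± 85.2 normalized counts (SD, 4 libraries each) and a log2 fold change of 0.07, with a sign that turned without Control replicate 1.

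By level per kilobase of exon in Control, the adhesion class was led by ADGRL1, ADGRA2 (344 ± 75.5), ADGRA3 (189 ± 22.2), ADGRB2 (185 ± 7.23) and ADGRL2 (158 ± 55.7, SD, 4 libraries each). ADGRA3, ADGRB2 and ADGRL2 did not stand apart by more than their spread. In DZNep, ADGRA2 went from place 2 to 6 and ADGRE5 from place 6 to 2 among the 20, at 112 ± 29.6 and 302 ± 61.8 normalized counts per kilobase.

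In the orphan class the largest change was that of GPR146, a receptor of liver that is linked to plasma cholesterol. GPR146 (ENSG00000164849, chromosome 7 from 1044546 to 1059261) had 29.3, 22.3, 9.85 and 15.0 normalized counts in Control and 198, 250.5, 289 and 143 in DZNep. The lowest DZNep library was several fold above the highest Control library. Its log2 fold change was 3.53, its standard error 0.36 and its adjusted p 6.57e-05 by edgeR's quasi-likelihood test, and its level per kilobase of exon went from place 30 to 14 of the 39. Other genes overlap 49.8% of its exon length. The longest overlap is with the lncRNA ENSG00000257607 on the opposite strand, which had 0 counts in all 8 libraries.

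GPR162 and GPR153, a pair of closely related class A orphans, moved in opposite directions. GPR162 (ENSG00000250510, chromosome 12 from 6821624 to 6829972) had 145, 116, 112 and 162 normalized counts in Control and 422, 424, 406 and 582 in DZNep, a log2 fold change of 1.75 (standard error 0.20, adjusted p = 1.05e-04 by edgeR's quasi-likelihood test). GPR153 (ENSG00000158292, chromosome 1 from 6247353 to 6261098) had 623, 593, 689 and 759.6 in Control and 229, 213, 291 and 206 in DZNep, a log2 fold change of -1.53 (standard error 0.17, adjusted p = 1.00e-04). Neither pair of groups overlapped. In Control, GPR153 stood at 159 ± 17.7 normalized counts per kilobase of exon and GPR162 at 41.6 ± 7.45, while in DZNep they stood at 56.0 ± 9.21 and 143 ± 25.7 (SD, 4 libraries each), so that their order was inverted.

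GPR85, GPR27 and GPR173 form the SREB family, which is highly conserved and expressed in brain. Of the 3, GPR85 rose, from 100.2, 119.6, 86.0 and 95.6 to 250.3, 230.3, 301 and 259 normalized counts over replicates 1 to 4, with a log2 fold change of 1.35 (standard error 0.18, adjusted p = 2.92e-04 by edgeR's quasi-likelihood test). GPR27, the most abundant of the family at 376 ± 40.1 normalized counts per kilobase of exon in Control, had a log2 fold change of 0.19 at an adjusted p of 0.327. In GPR173, Control replicates spread from 0.896 to 17.2 normalized counts and DZNep replicates from 15.3 to 19.1, with a log2 fold change of 1.16 at an adjusted p of 0.173. With the replicate number as a block these were 1.40 and 0.0384, which adds GPR173 to the called members and makes 14 that rose.

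Another 3 orphan genes with low levels rose. GPR4, a proton-sensing receptor known from endothelium, had 3.08, 0.893, 0.896 and 6.45 normalized counts in Control and 12.7, 13.7, 29.4 and 19.1 in DZNep, a log2 fold change of 2.72 (standard error 0.60, adjusted p = 0.00489 by edgeR's quasi-likelihood test). Without Control replicate 4, the highest of its group, the log2 fold change was 3.58. GPR61, a class A orphan of brain, had 9.25, 7.14, 7.17 and 1.07 in Control and 34.5, 37.0, 25.0 and 11.2 in DZNep, with replicate 4 the lowest in each group and a log2 fold change of 2.12 (standard error 0.54, adjusted p = 0.0106). Other genes, of which the longest overlap is with an lncRNA on the opposite strand, cover 24.8% of its exon length. GPR158, a class C receptor that recruits RGS7 in neurons, had 12.3, 15.2, 9.85 and 3.22 in Control and 38.1, 42.7, 42.3 and 19.1 in DZNep, again lowest in replicate 4, with a log2 fold change of 1.78 (standard error 0.45, adjusted p = 0.00980). GPR179, also of class C, had a log2 fold change of -1.16 (adjusted p = 0.124). The part of the endothelial markers given with ADGRL4, of which 4 of 6 were called higher and PECAM1 and KDR were not, in the value of GPR4 was not tested.

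**Figure D4:**
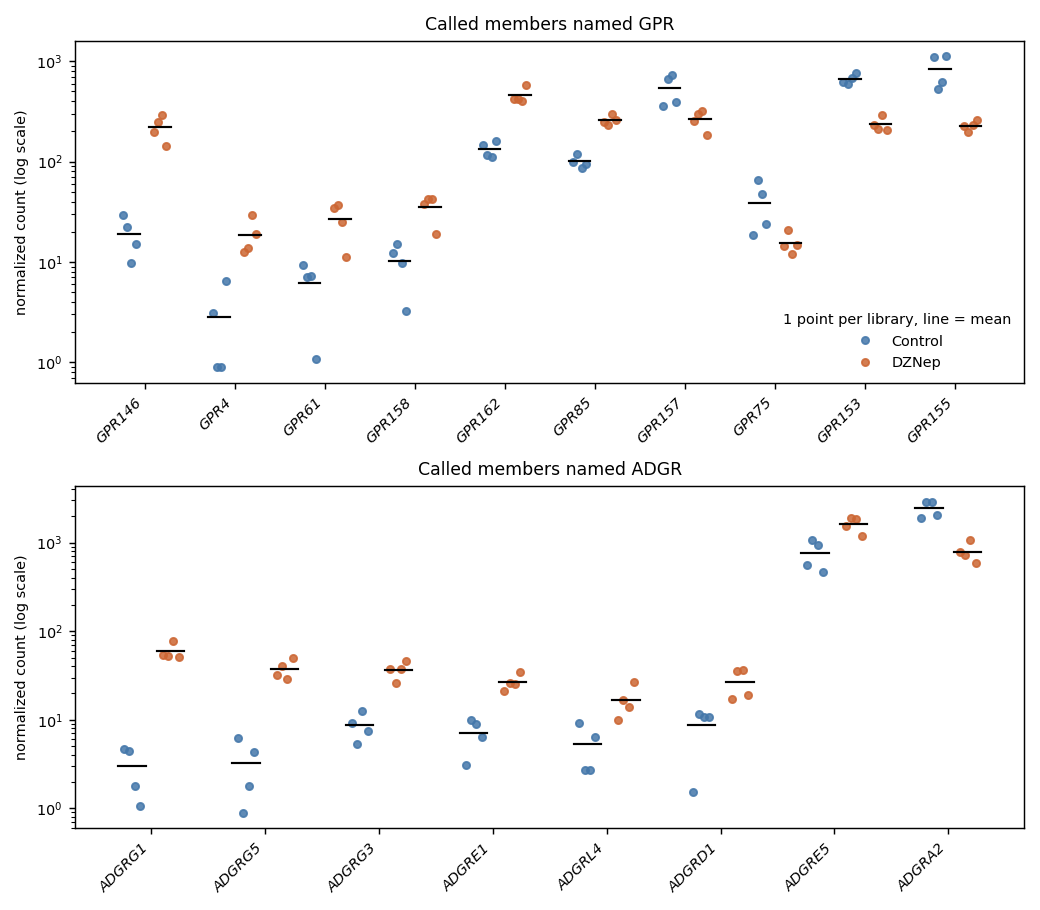
Normalized counts (log scale) of the 10 orphan (top) and 8 adhesion (bottom) members called, with 1 point per library, blue for Control, orange for DZNep and a line at the group mean. The groups stand apart in every gene plotted except GPR75, whose Control replicate 1 (18.5) lies below DZNep replicate 2 (20.9).

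In the orphan class 4 genes fell, of which GPR155 had the largest change. GPR155 (LYCHOS, ENSG00000163328, chromosome 2 from 174431571 to 174487094), a cholesterol sensor of the lysosome rather than a surface receptor, had 1107, 532, 624 and 1122 normalized counts in Control and 224, 197, 231 and 258 in DZNep. Control replicates 1 and 4 stood above Control replicates 2 and 3, and the DZNep libraries were tightly grouped below all of them. The log2 fold change was -1.92, its standard error 0.26 and its adjusted p 3.08e-04 by edgeR's quasi-likelihood test. GPR157, described on the primary cilium of neural progenitors, had 362, 661, 731 and 393 in Control and 251, 296, 323 and 186 in DZNep, a log2 fold change of -1.05 (standard error 0.27, adjusted p = 0.0107). It was not called with library sizes alone (-0.98), with limma (-0.98), or without Control replicate 2 (-0.94), Control replicate 3 (-0.87) or DZNep replicate 4 (-0.91). GPR75, a receptor linked to body weight, had 18.5, 65.2, 47.5 and 23.6 in Control and 14.5, 20.9, 12.1 and 14.6 in DZNep, with overlapping groups, a log2 fold change of -1.35 at an adjusted p of 0.0281. Its call was lost with limma (-1.12) and without any of Control replicates 2 and 3 and DZNep replicates 1, 3 and 4, with log2 fold changes between -1.32 and -0.99.

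Without the fold change threshold, 7 orphan members were higher and 8 were lower, where 19.1% and 21.8% of all genes tested were. The members added were GPR37 on the higher side and GPR161, GPR176, GPR137C and GPR50 on the lower side. GPR161, a ciliary receptor that holds back Hedgehog signaling, had 1397, 1237, 1302 and 1170.0 normalized counts in Control and 824, 1053, 881 and 727 in DZNep, with no overlap, a log2 fold change of -0.58 at an adjusted p of 0.0113 by edgeR's quasi-likelihood test. GPR176, a receptor of the circadian clock, had 625 ± 63.1 and 469 ± 13.2 (SD, 4 libraries each) and a log2 fold change of -0.44 (adjusted p = 0.0227). GPR137C and GPR50, a relative of the melatonin receptors, had log2 fold changes of -0.85 and -0.94. GPR37, a receptor of the endothelin receptor-like group that is known from oligodendrocytes, had 485 ± 178 and 829 ± 163 (SD, 4 libraries each) with a log2 fold change of 0.74 (adjusted p = 0.0432). A same-strand gene overlaps 21.4% of its exon length.

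Of the 5 most abundant GPR genes, 4 are in the list of proteins that act inside the cell or are no established receptor. Per kilobase of exon in Control, the class was led by GPR108 (504 ± 74.1 normalized counts), GPR27, GPR137 (367 ± 61.8), GPR107 (340.1 ± 130.3) and GPR180 (303 ± 131, SD, 4 libraries each), none of which was called. These 5 did not stand apart from their neighbours in the order by more than their spread, apart from GPR108 above GPR27. GPR107 and GPR108 are related Golgi proteins, and their log2 fold changes were -0.01 and -0.35 with adjusted p-values of 0.989 and 0.100 by edgeR's quasi-likelihood test. The value of GPR107 turned positive with median-ratio size factors, library sizes alone, DESeq2, limma and the replicate block. GPR107 had 2542, 4366, 3786 and 1734 in Control and 2970.2, 3818, 3750.2 and 2059.9 in DZNep, so that replicates 2 and 3 stood above replicates 1 and 4 in both groups and the group ranges overlapped. Of the 9 members in the group of intracellular proteins or proteins that are no established receptor, GPR155 fell and the other 8 were not called. GPR89A and GPR89B, near-identical copies for which reads may be lost or split, had log2 fold changes of 0.46 and 0.22 and adjusted p-values of 0.0539 and 0.299.

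In the other role groups no member was called. GPR3 and GPR12, which raise cAMP without a ligand, had log2 fold changes of 0.55 and 0.33 and adjusted p-values of 0.163 and 0.697 by edgeR's quasi-likelihood test. GPR183, an oxysterol receptor of lymphocytes, and GPR18, a lipid-related receptor, lie 32795 bp apart on chromosome 13, with log2 fold changes of 0.24 and -0.92 and adjusted p-values of 0.719 and 0.347. The class A orphans without a role group that were not called at either threshold, GPR78, GPR135, GPR63, GPR19 and GPR160, had log2 fold changes between -0.25 and 0.73 with adjusted p-values between 0.232 and 0.996.

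In all, 3 members of the normalized table did not pass the expression filter. ADGRF5 (GPR116), a receptor of the lung's alveolar cells, had 2, 0, 2 and 1 counts in Control and 23, 17, 35 and 6 counts in DZNep. GPR20 had 5, 9, 9 and 5 and 8, 34, 48 and 12 counts, and GPR34, a receptor for lysophosphatidylserine, had 12, 1, 1 and 55 and 1, 5, 4 and 10. ADGRF5 was thus above Control in every DZNep library, GPR20 in 3 of 4 replicate pairs, and GPR34 was highest in Control replicates 4 and 1. With DESeq2's Wald test, which applied no such filter, ADGRF5 had a log2 fold change of 3.73 (adjusted p = 2.15e-04), GPR20 one of 1.63 (adjusted p = 0.0292) and GPR34 one of -2.01 (adjusted p = 0.162). Both ADGRF5 and GPR20 were then called, as they were by edgeR without a filter.

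Of the 47 genes outside the normalized table, 39 had a GPR symbol (GPR15LG, a peptide ligand, among them) and 8 an ADGR symbol, and 8 of the 47 had 0 counts in all libraries. None of them was tested. Of the 39 with counts, the mean normalized count was higher in DZNep for 30 (76.9%) and lower for 9 (23.1%), and it was higher for 71.5% and lower for 28.5% of the protein-coding genes outside that table with counts, so the receptors were close to that background. Just inside the limit of 81 counts stood GPR12 with 83 and ADGRF5 with 86 counts over the 8 libraries, and just outside it ADGRD2 and ADGRF3 with 79 each. In raw counts summed over the 4 libraries of a group, ADGRF4 had 3 in Control and 67 in DZNep, ADGRD2 20 and 59, and ADGRF3 47 and 32. GPR143, the melanosome receptor of ocular albinism, had 53 and 21.

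Replicates 2 and 3 differed from replicates 1 and 4 in many members. In 12 of the 20 adhesion genes both Control replicates 2 and 3 lay above both Control replicates 1 and 4, where 35.2% of all genes tested did, and in 4 the reverse held (35.6% of all genes). In the orphan class these numbers were 11 and 12 of 39. In DZNep, replicates 2 and 3 lay above replicates 1 and 4 in 10 adhesion and 15 orphan genes, where 27.5% of all genes tested did. The labels give no meaning to the numbers beyond that of a replicate. With the replicate number as a block, 8 adhesion members were higher and 6 were lower at an adjusted p under 0.05 (28.8% and 30.2% of all genes), and 9 orphan members were higher and 10 were lower.

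Partners of the receptors were read from lists of ligands, G proteins and regulators. Of 19 tested ligands and partners of adhesion receptors, 5 fell and 1, TENM2, rose, where 13.5% and 10.6% of all genes tested did. The number that rose was 0 without Control replicate 1, Control replicate 3 or DZNep replicate 4, and 2 without Control replicate 4. C1QL1, a secreted ligand of ADGRB3, had 1087 ± 689.6 and 128 ± 57.1 normalized counts (SD, 4 libraries each), a log2 fold change of -3.12 (adjusted p = 7.31e-04 by edgeR's quasi-likelihood test). TENM4, a teneurin of the kind bound by latrophilins, and COL4A1, a chain of the collagen IV bound by ADGRG6, had log2 fold changes of -2.41 and -1.90, while ADGRB3, ADGRL1 to ADGRL3 and ADGRG6 were not called. The CELSR genes, adhesion receptors of planar cell polarity whose symbols lie outside the ADGR series, had 1 of 3 members that fell, CELSR1, from 1661 ± 439 to 733 ± 159.7 (SD, 4 libraries each) with a log2 fold change of -1.21.

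Of 13 tested G alpha subunits, 3 rose and 3 fell, beside 10.6% and 13.5% of all genes tested. GNAT1, the transducin of rods, and GNA15 rose with log2 fold changes of 4.22 and 1.63, and GNAZ, of the inhibitory group, fell with -1.88. GNAT1 had few reads in Control, with 3.47 ± 1.35 normalized counts there and 71.0 ± 15.5 in DZNep (SD, 4 libraries each). Of 7 adenylyl cyclases, 2 fell (13.5% of all genes tested), ADCY1 and ADCY3. ADCY1 went from 1407 ± 284 to 119.8 ± 12.7 normalized counts (SD, 4 libraries each) with a log2 fold change of -3.58 (adjusted p = 3.30e-06 by edgeR's quasi-likelihood test). Of 15 RGS genes, which shorten G protein signals, 3 rose and 3 fell (10.6% and 13.5% of all genes tested). The number that fell was 1 without Control replicate 1 and 5 without Control replicate 2 or DZNep replicate 4. RGS8, RGS4 and RGS2 rose with log2 fold changes of 3.62, 2.58 and 2.14, and that of RGS8 was 4.43 without Control replicate 2. RGS8 too had few reads in Control, with 1.95 ± 1.85 normalized counts there and 26.8 ± 15.3 in DZNep (SD, 4 libraries each). Of 8 tested receptor kinases and arrestins, edgeR's quasi-likelihood test called 0 at both thresholds, with 2 lower at an unadjusted p under 0.05, and DESeq2 without the filter called 2 of the whole list higher.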

How the data were processed

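The 8 HEK293T libraries were grouped by the treatment and replicate number in their titles. The authors' tools, per the submitters' processing notes and the methods, were Trimmomatic 0.36 for trimming, STAR 2.5.2b for alignment to GRCh38 and featureCounts of Subread 1.5.2, which took uniquely aligned reads within exons. The authors deposited these counts for 57500 genes. They also deposited a normalized signal, which was checked to equal each count over a single factor of its library. The annotation release and strand setting are not given in the sources used here. The study calls the libraries of a group biological replicates, while the labels do not say whether they came from separate cultures. The p-values therefore measure the spread between these samples.

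Symbols, exon lengths and positions came from GENCODE release 44 (56410 identifiers matched), which may differ from the annotation used for counting. Levels per kilobase divide by the union of a gene's exons. The main test was edgeR 4.0.16's quasi-likelihood test (R 4.3.3) on the counts of 19171 genes passing filterByExpr, with TMM normalization and Benjamini-Hochberg adjustment over all of them, with calls at adjusted p under 0.05 and absolute log2 fold change above 1. Alternatives were DESeq2 1.42.0, limma 3.58.1 on log2(normalized count + 1), 2 other normalizations, no low-count filter, no fold change threshold, a replicate block and leaving out each library. In simulated counts of this comparison over 18773 genes, 65 of 66 genes changed by a log2 fold change of 3, 55 of 67 by 2 and 21 of 67 by 1 were recovered, with 8 false calls. Both were counted at an adjusted p under 0.05 with no fold change threshold, and recovery also needed the right direction. Pairs of libraries differed beyond sampling noise (chi-square per degree of freedom of at least 16.1). Same-numbered libraries deviated together from their group means (correlations of 0.14, 0.49, 0.43 and 0.67), so the numbers were taken to pair them. Across numbers, Control replicate 1 correlated more with DZNep replicate 4 (0.53) than with DZNep replicate 1, and replicates 2 and 3 also correlated (0.40 and 0.34), so the deviations followed the split of replicates 1 and 4 from 2 and 3 as well.

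The members and lists were chosen with earlier results of these data known. Named members are the called ones (up to 8 per class and direction), the 5 most abundant of each class per kilobase, the called or else most abundant member of each role group, the pair GPR89A and GPR89B, and up to 3 called genes per list. Any other gene named was picked with its values in view. Promoter sequences are RefSeq's for GRCh38.p14. Fibroblast markers (1 of 6 higher, 0 lower) and neuron and glia markers (2 of 7 higher, 2 lower) were tabulated as well. Over all genes tested, 10.6% were called higher and 13.5% lower. The study's proteomics data were not analysed here. A few members that enter the counts are not reported here by name.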

Additional observations from a re-analysis of the deposited data

Results flagged for a closer look

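Over 94 groups of 4 libraries of the genes named, 4 held a library far from the other 3, by the ratio of its gap to the whole range against Dixon's 95% critical value, which chance passes in about 1 of 20 groups. The ratio was 0.914 for ADGRD1 in Control replicate 1, which was low. It was 0.897 for ADGRG1 in DZNep replicate 3 and 0.895 for GPR162 in DZNep replicate 4, both high. It was 0.967 for TENM4 in DZNep replicate 4, which was low. Without the library in question, the log2 fold changes of these genes were 1.25 for ADGRD1, 4.11 for ADGRG1, 1.62 for GPR162 and -2.20 for TENM4, each still called by edgeR's quasi-likelihood test with Benjamini-Hochberg adjustment.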

How the results depend on the processing

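The 13 members that rose and the 5 that fell were counted again under each alternative. The number that fell was 3 with limma and 10 with no fold change threshold, and it was 2 and 8 in the orphan class (4 as reported), while in the adhesion class it was 2 with no fold change threshold (1 as reported). Leaving out each library in turn gave between 3 and 7 members that fell, between 2 and 5 of the orphan class and between 1 and 2 of the adhesion class. The number that rose stayed between 11 and 14, with 6 to 7 orphan and 5 to 8 adhesion members. Under settings that kept all libraries the number that rose was 15 with DESeq2 and with no low-count filter, 14 with limma and 13 with library sizes alone and with median-ratio size factors. The pairing was fitted with the replicate number as a block, where 14 members rose and 5 fell, GPR173 was the call gained and no call was lost. Of the log2 fold changes of named genes, 19 values lost their call under an alternative, all of them in ADGRD1, ADGRE5, ADGRL4, GPR157 and GPR75. Another 14 values changed sign, all of genes that were not called. The sign of GPR107 turned with median-ratio size factors (0.016), library sizes alone (0.056), DESeq2 (0.017), limma (0.066) and the replicate block (0.038), and ranged from -0.21 to 0.20 over the libraries left out. The ranges of the others were -0.038 to 0.25 for ADGRL1, -0.019 to 0.20 for ADGRV1, -0.44 to 0.023 for GPR180 and -0.19 to 0.52 for GPR183. The cause was not tested. Members with few reads carry the larger standard errors. In the simulated comparison 21 of 67 genes changed by a log2 fold change of 1 were recovered, with no fold change threshold applied.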
